A study of Mus musculus with 8 samples.

Results

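The genes described here are 36 genes of the spindle, the spindle checkpoint and the entry into mitosis, taken by gene name from 4 lists of ac4C peaks. Of the 36 genes, 31 had a peak in at least 1 list, among 11417 genes with a peak in all. ac4C (N4-acetylcytidine) is an acetylated cytidine that the enzyme NAT10 writes into RNA. The lists came from acRIP-seq, in which RNA fragments are pulled down with an antibody against ac4C (IP) and sequenced beside the unselected fragments (input). One group was FGSCs, a line of cultured mouse female germline stem cells that the labels assign to the ovary and call the control group. The other was Dif-FGCs, the same kind of cell at day 3 of differentiation. According to the study's methods, granulosa cells were grown with them during this time, and the medium held bFGF, BMP4 and retinoic acid. Each group had 2 IP and 2 input libraries, 8 in all, and each IP library gave 1 list, so that 2 lists stood against 2. The study calls the 2 libraries of a group biological replicates, and the labels do not say whether they came from separate cultures.

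Mitosis is entered when the kinase CDK1, bound to cyclin B, outweighs its inhibitor WEE1, with the CDC25 phosphatases removing the inhibitory phosphates. Aurora and Polo-like kinases then build the spindle, kinetochores attach chromosomes to it, and the spindle checkpoint holds back the anaphase-promoting complex until every kinetochore is attached. Stem cells in culture divide by mitosis, whereas germ cells that leave the stem cell state are on the way to meiosis, where many of the same proteins serve.

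The 31 genes were found largely in both states. A peak was present in all 4 lists for 21 of them (67.7%), against 43.5% of all genes with a peak. Peaks in both FGSC lists and neither Dif-FGC list were found for 2 genes, Bub1 and Ndc80 (6.45%, against 5.25% of all genes). The reverse, both Dif-FGC lists and neither FGSC list, was found for 0 genes, against 1.62% of all genes. The remaining 8 genes (Bub3, Ttk, Aurka, Plk1, Ccna2, Cdc20, Nuf2 and Smc2) had a peak in 1 to 3 lists with no clean split by group. No peak was listed for Mad2l1, Ccnb1, Cdc25c, Ncapd2 and Ect2. A gene without a listed peak is not shown to lack ac4C, since the lists carry no read counts and the depth behind them is unknown.

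FGSC 1 held 93 peaks on 29 of the 36 genes, FGSC 2 held 52 on 24, Dif-FGC 1 held 79 on 27 and Dif-FGC 2 held 60 on 25. The mean was 72.5 ± 29.0 peaks in FGSC and 69.5 ± 13.4 in Dif-FGC (SD, n = 2 each), so the groups differed by less than the replicates of one group. The lists themselves were of unequal length (22791, 16290, 22480 and 13920 peaks), and the genes took 0.408%, 0.319%, 0.351% and 0.431% of them. Each gene with a peak carried 3.21, 2.17, 2.93 and 2.40 peaks on average, against 2.52, 2.04, 2.63 and 2.15 over all genes.

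**Figure D1:**
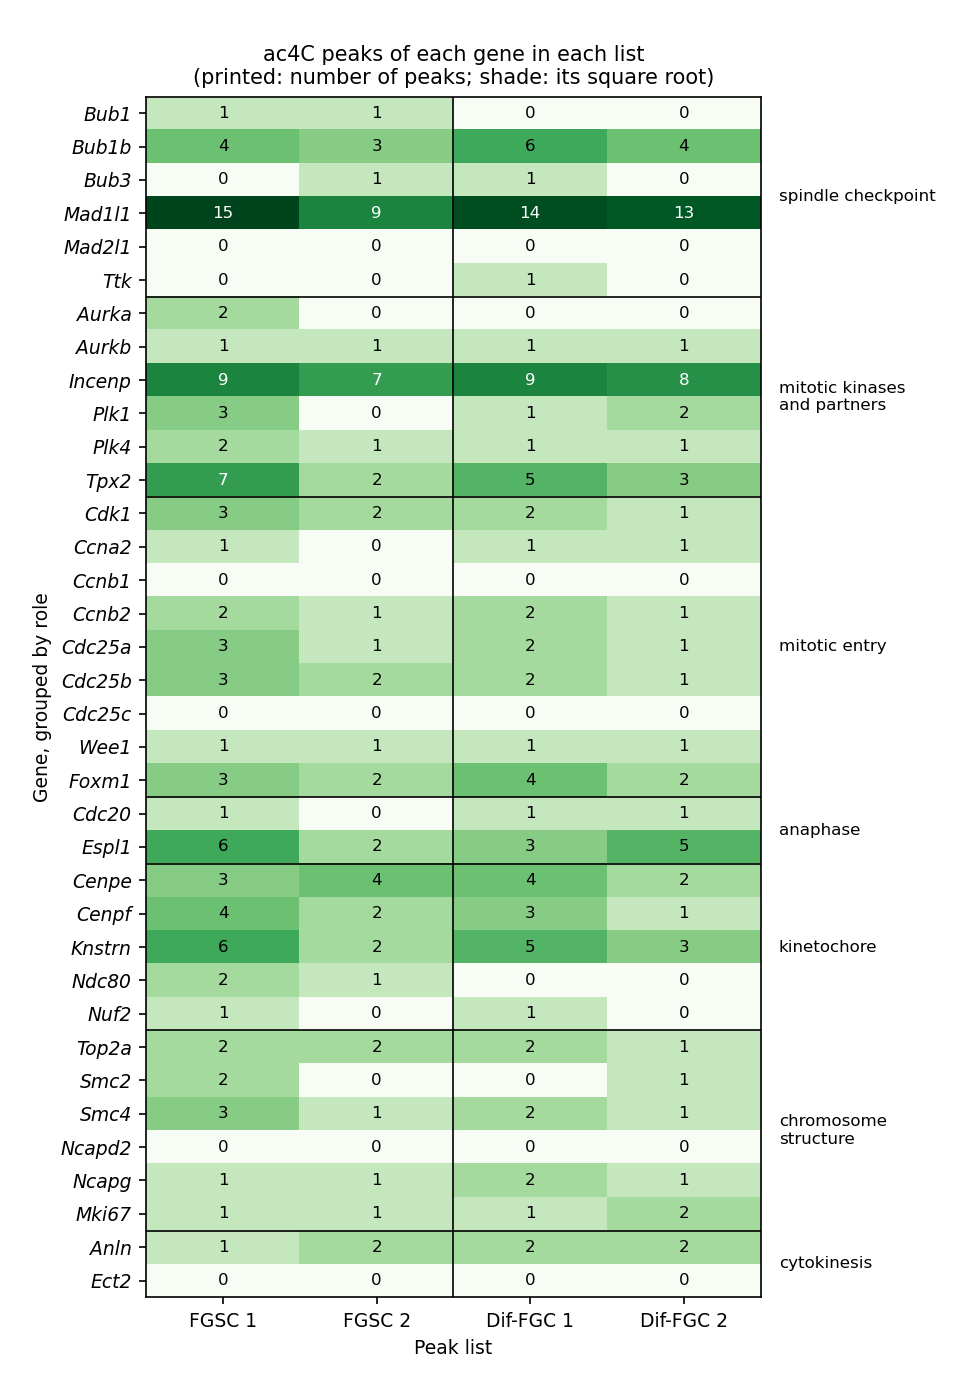
Number of ac4C peaks listed for each of the 36 genes (rows, grouped by role) in each of the 4 peak lists (columns), printed in the cells and shaded by its square root. Mad1l1 (9 to 15 peaks) and Incenp (7 to 9) carried the most in every list, Bub1 and Ndc80 were listed in the FGSC lists alone, and 5 genes had no peak.

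Peaks of different lists that overlapped were joined to 121 loci on these genes. A peak in all 4 lists was found at 33 loci (27.3%, against 15.5% of all loci). Mad1l1 gave 7 and Incenp 6 of these, so genes with many peaks carried much of the count. Of these 33 loci, 23 had the same limits in every list, against 43.9% of such loci over all genes. FGSC lists alone held 5 loci (4.13%, against 3.61% of all loci) and Dif-FGC lists alone held 2 (1.65%, against 3.65%). This order turned under the stricter settings, with 2 FGSC-only and 3 Dif-FGC-only loci when every list was cut to its 13920 strongest peaks, and 3 and 6 with a peak score of at least 100. A single list held 44 loci (36.4%, against 54.7%), 23 of them in FGSC 1. More peaks in both FGSC lists than in either Dif-FGC list were counted for 2 genes, again Bub1 and Ndc80 (against 9.24% of all genes with a peak), and more in both Dif-FGC lists for 0 genes (against 4.94%). With 4 lists there are 6 assignments to 2 groups, so the smallest p the exact two-sided permutation test allows is 0.333 and no gene could be called.

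Peak strength was read as a rank within each list, because the authors' fold enrichment (IP over input) is not on one scale between lists. The fold rank is the percent of the peaks of the same list with a lower fold, so that 100 stands for the strongest. The strongest peak of each gene had a median fold rank of 69.8, 75.1, 67.5 and 61.5 in FGSC 1, FGSC 2, Dif-FGC 1 and Dif-FGC 2, against 71.2, 66.4, 70.2 and 65.4 over all genes. The set therefore lay close to all genes, above them in 1 list and below them in 3. Single genes spread over nearly the whole scale, from 0.710 for Bub3 in Dif-FGC 1 to 99.8 for Incenp.

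Peaks lay often at the start of the gene, and those at the start were the ones shared most between lists. Of the 36 genes, 28 had an annotated start with strand in the RefSeq table. Within 100 bp of such a start lay 17 of 68 and 14 of 38 peaks in the FGSC lists, and 16 of 56 and 13 of 43 in the Dif-FGC lists (replicates 1 and 2). These shares (25.0%, 36.8%, 28.6% and 30.2%) were near those of all genes (23.6%, 29.7%, 22.0% and 30.2%). The strongest peak of the gene was the one at the start for 15 of 22 and 13 of 18 genes in FGSC, and for 15 of 20 and 13 of 18 in Dif-FGC. That was 68.2%, 72.2%, 75.0% and 72.2% of the genes, against 50.5%, 52.9%, 47.7% and 57.7% over all genes. Median fold at the start was 19.8, 14.7, 11.7 and 9.29 and elsewhere 7.50, 4.52, 6.96 and 7.58. Over all genes it was 20.8, 13.8, 14.9 and 12.8 at the start and 8.52, 5.62, 6.12 and 6.71 elsewhere.

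Of 20 loci at a start, 11 had a peak in all 4 lists (55.0%), and of 71 loci elsewhere 10 did (14.1%). Over all genes the shares were 37.9% and 10.4%. Loci at a start were thus held in all 4 lists more often than loci elsewhere, both on these genes and over all genes. Of the 21 loci of these genes held in all 4 lists, 11 lay at a start. These counts cover only the genes with an annotated strand.

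**Figure D2:**
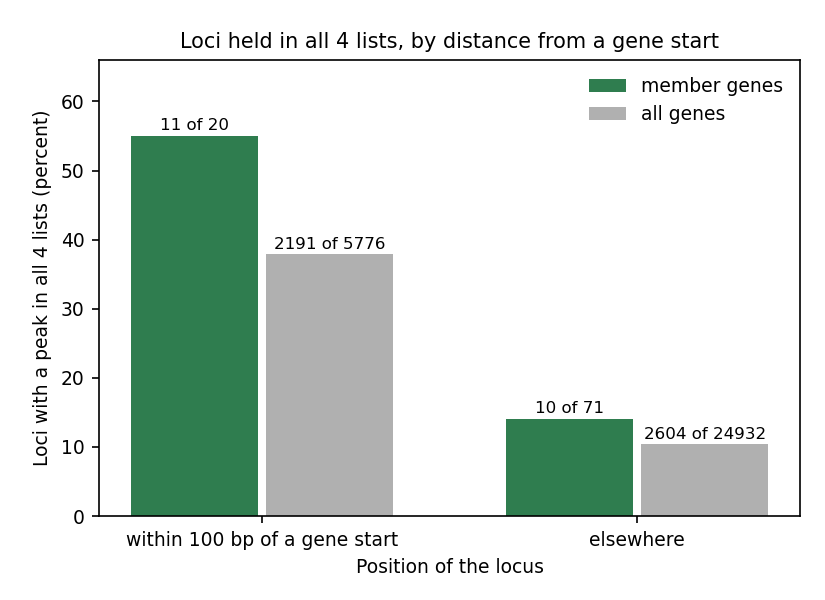
Percent of loci with a peak in all 4 lists (bars, from 0), for loci within 100 bp of an annotated gene start and for all others, in the spindle, checkpoint and mitotic entry genes (green) and in all genes (grey). The number of loci in all 4 lists of the number of loci stands over each bar; 11 of 20 loci at a start were held in all 4 lists.

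The first 30 bases from the start are shown for the genes in which a peak covered them, because ac4C has been tied to a motif of spaced cytidines, CNNCNNCN. All 30 bases lay inside a peak in all 4 lists for 8 genes and in at least 1 list for 15. The motif was present in 2 of these 8 genes and in 5 of these 15. Those 5 are printed with its spaced cytidines in capitals (given strand, 5′ to 3′, base 1 the annotated start, RefSeq, GRCm38.p6). Bub1b and Cdk1 were covered in all 4 lists, Plk4 in all but FGSC 1, Mad1l1 in all but Dif-FGC 2, and Bub1 in the FGSC lists alone.
Bub1b, chr2:118598211-118598240, plus strand: ggggagcggcgaggCtaCgtCtgCgtCaag
Cdk1, chr10:69352883-69352912, minus strand: actCggCctCtaagctcctggagttgctgc
Plk4, chr3:40799951-40799980, plus strand: agcgagggaaagCccCtgCtgCgcatgcgt
Mad1l1, chr5:140321523-140321552, minus strand: gagggagatctgagCggCtgCtgCagCacc
Bub1, chr2:127831830-127831859, minus strand: ggctgcgcggggaattcgaatCgcCggCgg
For contrast, the starts of Cdc25a and Cenpe lay in a peak in all 4 lists and held no match, so they carry no capitals.
Cdc25a, chr9:109875579-109875608, plus strand: cactttggtggtgagggaagtgaaggttcc
Cenpe, chr3:135212563-135212592, plus strand: aaccttgaggacattttaaacttaaaggcg
Across the table, the motif was in the first 30 bases of 8 of 31 entries of these genes (25.8%) and of 32.9% of all 32851 entries, counted on the given strand with overlapping matches. It was in 5 of 15 entries with a covering peak and in 3 of 16 without. Matches describe letters and are not mapped acetylated bases.

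The starts were also read for letters known from genes expressed late in the cell cycle. The CHR (cell cycle genes homology region), whose letters are TTTGAA or TTCGAA, is the element through which the MuvB complex and its partners, among them FOXM1, time transcription of G2 and M phase genes. Searched on both strands from 50 bases before to 50 after the start, these letters were in 19 of 31 entries of the genes (61.3%), that is in 18 of 28 genes. They were in 5.31% of all entries and in 25 of 89 entries of the other mitotic genes listed further on (28.1%). The CHR letters were looked for after the sequences had been seen, and the shares are a description. Of the 8 genes whose first 30 bases were covered in all 4 lists, 5 held them, and these are printed with Bub1 and Anln, whose first 30 bases lay in a peak in the FGSC lists alone and in the Dif-FGC lists alone (30 bases around the letters, which are in capitals, RefSeq, GRCm38.p6).
Bub1b, chr2:118598231-118598260, plus strand: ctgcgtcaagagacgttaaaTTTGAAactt
Cdk1, chr10:69352910-69352939, minus strand: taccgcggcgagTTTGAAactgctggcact
Ccnb2, chr9:70421533-70421562, minus strand: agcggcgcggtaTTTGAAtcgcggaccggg
Cdc25b, chr2:131186943-131186972, plus strand: ccgctgttatttTTCGAAtatataaggagg
Cenpf, chr1:189688067-189688096, minus strand: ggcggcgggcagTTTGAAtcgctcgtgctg
Bub1, chr2:127831828-127831857, minus strand: ctgcgcggggaaTTCGAAtcgccggcggcc
Anln, chr9:22389168-22389197, minus strand: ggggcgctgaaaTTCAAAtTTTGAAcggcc
In Cdk1 the letters began 15 bp before the start, and in Bub1b, Ccnb2, Cdc25b, Cenpf, Bub1 and Anln 40, 4, 7, 2, 14 and 21 bp after it. In these 6 genes they therefore stood inside the annotated transcript.

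Among the 6 spindle checkpoint genes, 5 had a peak, with 10 of 25 loci in all 4 lists. Bub1, the kinase that recruits the other checkpoint proteins to the kinetochore, had 1 locus, at its start (chr2:127831720-127831865). Its fold was 15.1 in FGSC 1 (rank 66.9) and 10.7 in FGSC 2 (rank 66.1), and no peak was listed in Dif-FGC 1 or Dif-FGC 2. Both FGSC peaks were of middling strength for their lists, and the groups did not overlap (exact permutation p = 0.333, the smallest possible). With all lists cut to the 13920 strongest peaks, and with a peak score of at least 100, Bub1 was still listed in the FGSC lists alone. Both settings only remove weaker peaks, so neither could have added a Dif-FGC peak, and they do not test its absence there.

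Bub1b (BUBR1), a subunit of the mitotic checkpoint complex that inhibits CDC20, had 4, 3, 6 and 4 peaks in FGSC 1, FGSC 2, Dif-FGC 1 and Dif-FGC 2. Its start (chr2:118598211-118598461) had folds of 17.2, 61.2, 46.1 and 39.5, at ranks of 71.4, 94.7, 94.3 and 93.3. Bub1b was thus held at the same place in both states, and 2 further loci, at chr2:118617706-118617935 and chr2:118622135-118622247, were also in all 4 lists. Bub1 and Bub1b arose from a common ancestor, and only the former lacked a listed peak in Dif-FGC.

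Mad1l1, which carries MAD2 to unattached kinetochores, had 15, 9, 14 and 13 peaks at 15 loci, spread over 312920 bp of gene. All 4 lists shared 7 of its loci, the best ranked of them at chr5:140310595-140310735 with folds of 41.6, 9.0, 26.9 and 13.9 (ranks 90.8, 60.3, 88.4 and 73.1). One locus was in the FGSC lists alone (chr5:140302915-140302996), with folds of 14.4 and 8.65 at ranks of 65.2 and 58.9, and it stayed so with lists of equal length and with a score of at least 100. Under the same settings 2 other Mad1l1 loci, chr5:140008708-140009274 and chr5:140117237-140117325, were in the Dif-FGC lists alone. One more locus, at chr5:140307591-140307770, was held in all lists at ranks of 48.5, 35.3, 84.8 and 81.1, so both Dif-FGC peaks stood above both FGSC peaks in their lists. In the full lists, 6 loci of Mad1l1 were missing from FGSC 2 alone, the list with the fewest peaks on this gene. Bub3, the partner of BUB1 and BUBR1, had 1 peak each in FGSC 2 (rank 54.6) and Dif-FGC 1 (rank 0.710), at different places. Ttk (MPS1), the kinase at the head of the checkpoint, had 1 peak in Dif-FGC 1 (rank 61.1). Mad2l1, the checkpoint's effector MAD2, had none.

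All 6 mitotic kinases and partners had a peak, with 9 of 29 loci in all 4 lists. Incenp, the scaffold of the chromosomal passenger complex that holds and activates Aurora B, had the strongest peaks of the whole set in every list. At chr19:9876590-9876816 its folds were 339.8, 677, 489.7 and 207, and at chr19:9878128-9878248 they were 451, 368, 313 and 158. The mean ranks of these loci were 99.8 and 99.6, so fewer than 1 in 100 peaks of any list were stronger, and no order between the states was seen. Incenp had 9, 7, 9 and 8 peaks at 11 loci, 6 of them in all 4 lists.

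One of these shared loci, chr19:9874220-9874370, had folds of 166, 3.13, 114 and 66.2, so FGSC 2 stood far below the other 3 lists. FGSC 2 instead held a peak of its own at chr19:9874818-9874923, with a fold of 129 (rank 97.9). The Dif-FGC lists alone held chr19:9886675-9886726, with folds of 2.78 and 5.64 at ranks of 6.20 and 30.6. Both were weak peaks. The locus was no longer in the Dif-FGC lists alone once the lists had equal length, and still was with a score of at least 100.

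**Figure D3:**
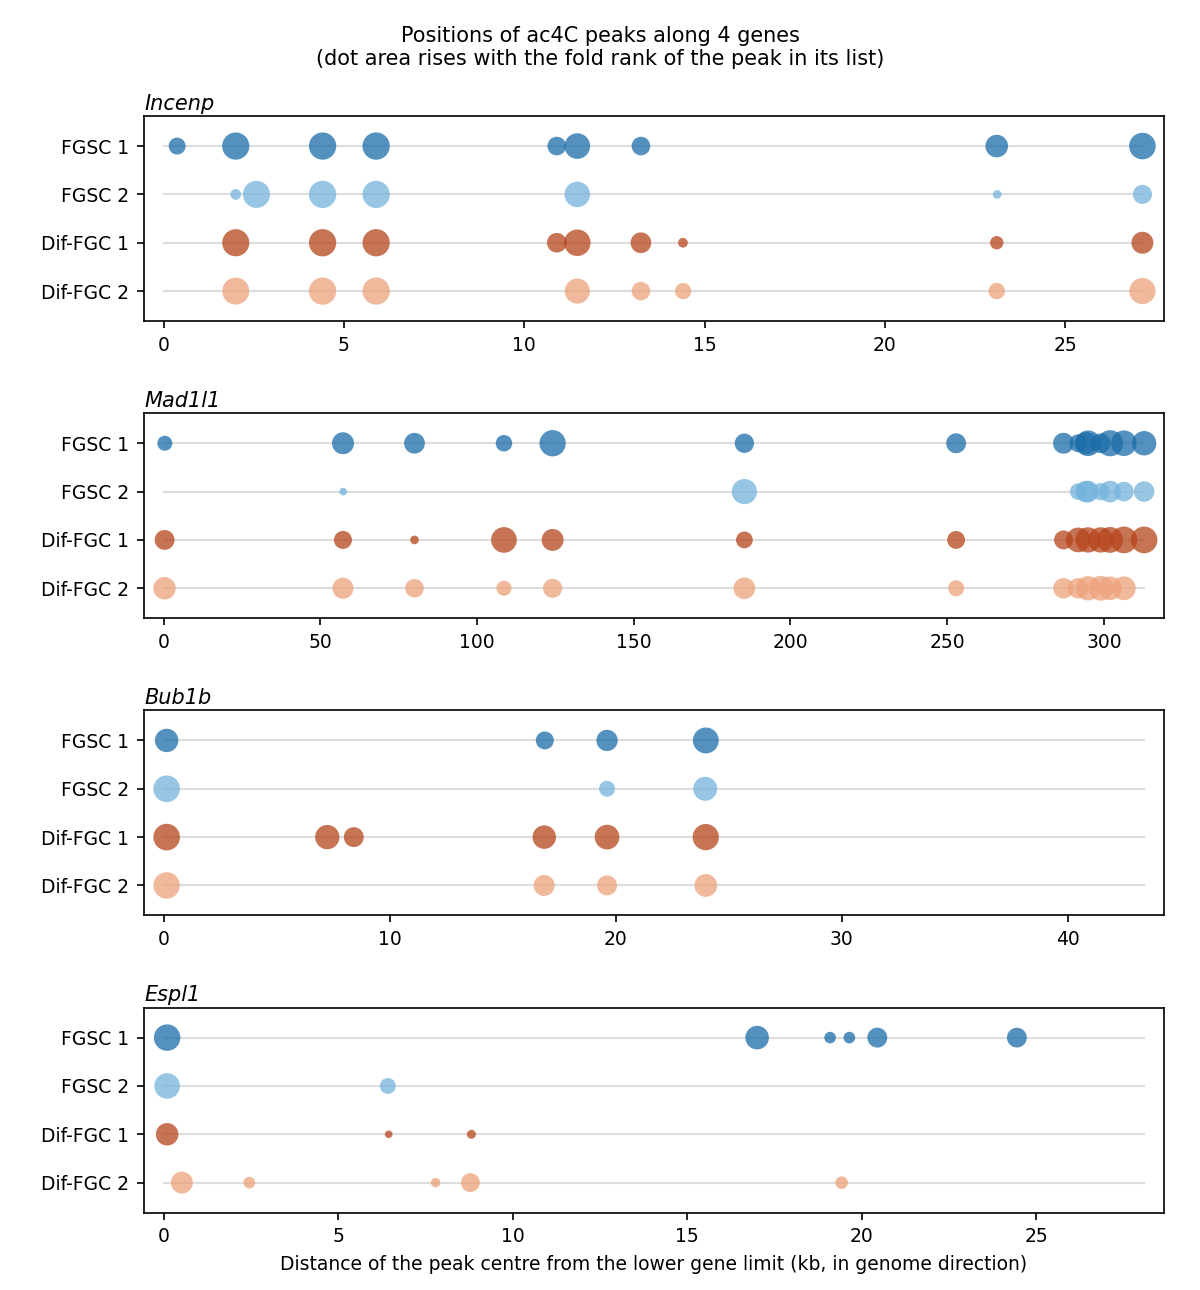
Positions of ac4C peaks along Incenp, Mad1l1, Bub1b and Espl1 in each list, as the distance of the peak centre from the lower limit of the gene in kb (genome direction, each gene on its own scale), with a dot area that rises with the fold rank. The strongest shared Incenp loci stand at the same places in all 4 lists. Mad1l1 peaks crowd at the end with the annotated start, and Espl1 peaks away from the start differ between lists.

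Plk4, the master kinase of centriole duplication, had folds of 33.0, 42.8, 68.0 and 28.4 at its start (chr3:40799951-40800283), at ranks of 87.4, 91.8, 96.7 and 89.1. It came next after Incenp among the genes with a locus in all lists, with a mean rank of 91.2, and the groups overlapped. Aurkb (Aurora B), the kinase of the passenger complex, had 1 peak in every list at ranks of 69.8, 54.3, 49.5 and 54.6. Its scaffold Incenp therefore ranked far above it in each list.

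Tpx2, the microtubule factor that activates Aurora A, differed most between the states by rank. Its shared locus at the lower gene limit (chr2:152847964-152848297) had folds of 15.4, 25.9, 4.60 and 2.91, at ranks of 67.3, 86.3, 28.1 and 2.60. Both FGSC ranks stood above both Dif-FGC ranks (mean 76.8 against 15.4, exact permutation p = 0.333). Plk1, the Polo-like kinase of mitotic entry and exit, had 3, 0, 1 and 2 peaks and Aurka (Aurora A) 2 peaks in FGSC 1 alone. Both were split by list and not by group.

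Of the 9 mitotic entry genes, 7 had a peak and 6 had one in all 4 lists. Cdk1 had folds of 18.5, 18.4, 12.5 and 13.8 at its start (chr10:69352836-69352938), at ranks of 73.9, 80.4, 71.9 and 72.8. The peak was kept at much the same rank, and a second, weak locus (chr10:69350096-69350158, folds 4.80 and 4.58, ranks 11.4 and 29.7) was listed in FGSC alone. That second locus was lost from the FGSC-only loci when the lists had equal length, though not with a score of at least 100.

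Of the 3 phosphatase genes whose products activate CDK1, Cdc25a and Cdc25b had peaks in all lists and Cdc25c had none. Cdc25a had folds of 45.8, 53.4, 15.1 and 11.1 at its start (chr9:109875579-109876159), at ranks of 91.9, 93.7, 77.3 and 65.2. Cdc25b had folds of 23.3, 20.0, 11.0 and 7.15 at its start, at ranks of 80.2, 82.0, 67.5 and 44.3. In both genes the FGSC ranks did not overlap with the Dif-FGC ranks, with mean ranks of 92.8 against 71.2 for Cdc25a and 81.1 against 55.9 for Cdc25b. Over all genes, 16.3% of the loci in all 4 lists showed this order.

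Wee1 is the kinase that opposes these phosphatases. Its single peak (chr7:110122059-110122925) had folds of 16.3, 28.4, 65.0 and 30.1, at ranks of 69.8, 87.4, 96.5 and 90.1. The mean rank was 78.6 in FGSC and 93.3 in Dif-FGC, an order shown by 22.6% of such loci over all genes, and the nearest lists of the groups, FGSC 2 and Dif-FGC 2, stood close together. The exact permutation p was 0.333 for Cdc25a, Cdc25b and Wee1 alike, so none of these orders could be called, and these genes were singled out after their values were seen.

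Among the cyclins, Ccnb2 (cyclin B2) had a start peak in all lists at ranks of 68.2, 17.3, 55.9 and 57.6, with FGSC 2 the low one. Ccna2 (cyclin A2) had 1 peak in each list but FGSC 2, at ranks of 41.9, 75.7 and 41.0. Ccnb1 (cyclin B1), the main partner of CDK1 in mitosis, had none. Foxm1, the transcription factor that drives G2 and M phase genes, had 3, 2, 4 and 2 peaks. Its locus at chr6:128367287-128367438 ranked 15.3, 13.3, 15.7 and 54.7, so only Dif-FGC 2 stood apart.

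The anaphase genes, both with a peak, shared no locus between all 4 lists. Espl1 (separase), the protease that cuts cohesin, had 6, 2, 3 and 5 peaks at 10 loci. Its start (chr15:102296293-102296415) had folds of 51.9, 26.6 and 10.2 in FGSC 1, FGSC 2 and Dif-FGC 1, at ranks of 93.3, 86.6 and 65.3, and no peak in Dif-FGC 2. Dif-FGC 2 had a peak further on, at chr15:102296706-102296849 (fold 10.1, rank 61.5). The Dif-FGC lists alone held chr15:102304926-102305165, with folds of 2.57 and 7.11 at ranks of 4.12 and 44.0. The FGSC peaks at the start were the stronger ones, and the Dif-FGC locus was weak in 1 of its 2 lists and was lost from the Dif-FGC-only loci when the lists had equal length, though not with a score of at least 100. Cdc20, the activator of the anaphase-promoting complex that the checkpoint restrains, had 1 peak in each list but FGSC 2. Those of FGSC 1 and Dif-FGC 1 lay at its start (chr4:118436941-118437352), and that of Dif-FGC 2 lay elsewhere (chr4:118433964-118434876).

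All 5 kinetochore genes had a peak, with 3 of 22 loci in all 4 lists. Cenpf, a large outer kinetochore protein, had folds of 55.5, 16.9, 45.0 and 20.8 at its start (chr1:189687976-189688086), at ranks of 93.9, 78.6, 94.1 and 83.6. Replicate 1 stood above replicate 2 in each group, and the groups overlapped. Cenpe, the kinesin that moves chromosomes to the spindle equator, had folds of 19.7, 12.6, 12.8 and 6.14 at its start (chr3:135212563-135212714), at ranks of 75.6, 71.5, 72.9 and 35.8. A locus further along (chr3:135242063-135242353) was in the FGSC lists alone, with folds of 5.74 and 5.65 at ranks of 19.9 and 40.1. It left the FGSC-only loci under both of the stricter settings named for Bub1.

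Ndc80, the subunit that gives the NDC80 complex its grip on microtubules, had 2, 1, 0 and 0 peaks. The FGSC-only locus was chr17:71517544-71517633, with folds of 3.89 and 3.58 at ranks of 5.06 and 16.5. These were among the weakest peaks of their lists, and Ndc80 left the FGSC-only genes when the lists had equal length and when a peak score of at least 100 was required. Nuf2, its partner in the same complex, had 1 weak peak each in FGSC 1 (rank 3.60) and Dif-FGC 1 (rank 13.4). Knstrn, a spindle and kinetochore protein, had 6, 2, 5 and 3 peaks. Its shared locus (chr2:118814062-118814492) ranked 84.9, 92.0, 67.9 and 50.5, with FGSC above Dif-FGC. The FGSC 1 peak there (chr2:118814062-118814309) overlapped only in part with the peak of the other lists (chr2:118814233-118814492).

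Among the 6 genes of chromosome structure, 5 had a peak. Smc4, a core subunit of condensin, had a locus in all lists at ranks of 71.0, 70.9, 79.8 and 66.2, and its partner Smc2 had peaks in FGSC 1 and Dif-FGC 2 alone. Ncapg, a condensin I subunit, had peaks in all lists but no locus shared by the 4, since FGSC 1 lacked the one at the start. Ncapd2, another condensin I subunit, had none.

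Top2a, the topoisomerase that untangles sister chromatids, was weak throughout, with ranks of 7.78, 29.3, 28.1 and 11.2 at its shared locus. Mki67 (Ki-67), the protein that coats mitotic chromosomes and is the usual marker of cycling cells, ranked 75.7, 32.1, 76.3 and 82.9 at its start. It was listed in both states, with FGSC 2 as the low list. Of the cytokinesis genes, Anln (anillin), which organises the contractile ring, had a locus in all lists near its start (chr9:22388970-22389206), with folds of 4.00, 2.69, 9.38 and 8.97. The ranks were 5.89, 4.63, 62.1 and 56.1, near the bottom of both FGSC lists and above the middle of both Dif-FGC lists. The Dif-FGC peaks reached the annotated start, whereas the peak of FGSC 1 ended 37 bp and that of FGSC 2 142 bp short of it. Ect2, the exchange factor that activates RhoA at the cell equator, had no peak.

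Ranks at the 33 loci held in all lists were set side by side to see how far the states moved apart. Both FGSC ranks were above both Dif-FGC ranks at 5 loci (15.2%), those of Cdk1, Knstrn, Cdc25b, Tpx2 and Cdc25a, against 16.3% of all 6160 such loci. Both Dif-FGC ranks were above both FGSC ranks at 6 loci (18.2%), 2 of Mad1l1 and 1 each of Foxm1, Wee1, Mki67 and Anln, against 22.6%. At the other 22 loci the groups overlapped. Both shares lay near those of all such loci. When ranked among the loci of all 4 lists only, the same loci in every list, 6 loci were higher in FGSC and 4 in Dif-FGC. Knstrn, Cdc25b, Tpx2 and Cdc25a, and the Mad1l1 loci, Wee1 and Anln, kept their order there, whereas Cdk1, Foxm1 and Mki67 did not. The shares of all such loci under that ranking are not given here, so its counts are not read as a trait of these genes. The largest shifts over the full lists were -61.4 rank points for Tpx2 and 53.8 for Anln (Dif-FGC minus FGSC). This comparison was added after the values had been seen.

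**Figure D4:**
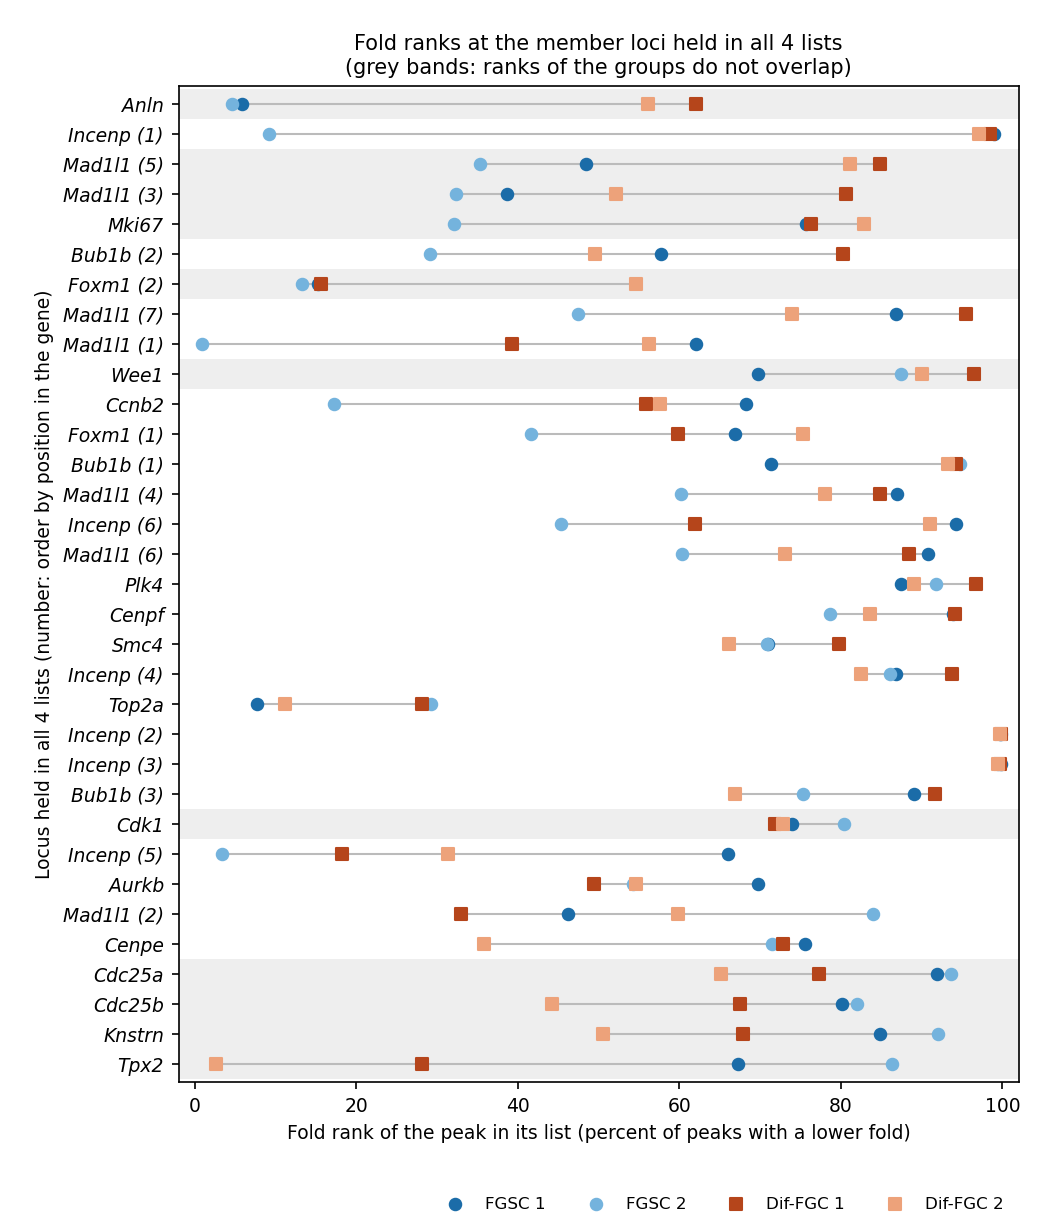
Fold rank (percent of the list's peaks with a lower fold) of each of the 33 loci held in all 4 lists, ordered by the difference between the groups, with 1 point per list (circles FGSC, squares Dif-FGC). Grey bands mark the 11 loci whose groups do not overlap; Tpx2 is lowest in Dif-FGC and Anln lowest in FGSC.

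Loci in all 4 lists were also the stronger ones. On these genes their median fold was 18.5, 9.0, 15.1 and 11.6 in FGSC 1, FGSC 2, Dif-FGC 1 and Dif-FGC 2, and that of loci in 1 list was 6.02, 5.88, 3.58 and 3.94. The same held over all genes, with medians of 20.9, 12.6, 17.1 and 13.8 against 7.14, 4.40, 4.64 and 4.71. Of the 7 loci held in both lists of 1 state and neither of the other, those of Bub1 and Mad1l1 ranked above 58 in both lists, and each of the others ranked below 45.

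The other genes of the pathway were read the same way. Of 89 further genes of the anaphase-promoting complex, cohesin, kinetochore, condensin and mitotic entry, 77 had a peak and 35 had one in all 4 lists (45.5%, against 43.5% of all genes with a peak). FGSC lists alone held 2 of them (Cdc23 and Lin9, 2.60%, against 5.25%) and Dif-FGC lists alone 2 (Anapc15 and Cenpw, 2.60%, against 1.62%). The Lin9 peaks of FGSC 1 and FGSC 2 did not overlap. In all lists were 10 of 13 cohesin genes (76.9%) and 5 of 16 genes of the anaphase-promoting complex (31.2%), the target of the checkpoint, both small counts.

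Markers of the cells bear on how the groups are read. Of 12 granulosa cell genes, 2 and 1 had a peak in the FGSC lists and 6 and 3 in the Dif-FGC lists (replicates 1 and 2). Nr5a1 and Nr5a2 were in both Dif-FGC lists alone, though the Nr5a1 peaks of those lists did not overlap. Inhba was in both FGSC lists and Dif-FGC 1, and Fst in FGSC 1 alone. Amhr2, Inhbb and Hsd17b1 were in Dif-FGC 1 alone, Inha in Dif-FGC 2 alone, and Foxl2, Amh, Fshr and Cyp19a1 in no list. The part of co-cultured granulosa cells in the differences between the lists was not tested. Of 9 germline genes, 3, 3, 2 and 3 had a peak. Ifitm3 and Thy1 were in the FGSC lists alone, Itga6 in the Dif-FGC lists alone, and Ddx4, Pou5f1, Dppa3 and Dazl in no list. The Thy1 peaks of the FGSC lists did not overlap, nor did the Itga6 peaks of the Dif-FGC lists. Both Itga6 peaks were weak, at ranks of 11.8 in Dif-FGC 1 and 7.50 in Dif-FGC 2. Of 11 meiosis genes, 2, 2, 0 and 1 had a peak, with Stra8 and Sycp3 in no list. By gene call alone, germline genes listed in 1 state thus went both ways, and several defining genes had no peak in either state. In bulk RNA, changes in the share of G2 and M phase cells and in RNA or ac4C per cell cannot be told apart.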

How the data were processed

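FGSC and Dif-FGC libraries were prepared by the authors from rRNA-depleted, fragmented RNA. The submitters' processing notes name cutadapt, HISAT2, MACS2 and mm10, without versions. The deposited lists hold, per IP library, the authors' peaks on mRNAs called against input, with a fold enrichment (a ratio of IP over input), a peak score, an FDR in percent and the peak length in bp. By its column header the deposited score is 10 times the negative log10 of the p-value, and 4.83% to 15.2% of a list's peaks stood at 3100 or above. The authors' FDR percent was high (list medians 59.91 to 100, lowest value at a member gene 51.37) and was not used as a filter. Which MACS release made the lists is not settled. The lists carry no read counts or strand, so no test per peak was run and depth is unknown.

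Peaks were matched by the authors' gene names. Peaks of different lists overlapping by at least 1 bp were chained to loci with Python 3.11.15 and pandas 2.3.3, and the merging was checked on simulated peaks. Starts, strands and sequences came from RefSeq (GRCm38.p6), with 250 bases before and 50 after each start. Without an mm10 genome or exon annotation, exons and UTRs were not assigned. Members and lists were chosen with earlier results of these data known. Values in every list were given for genes with a call or locus in 1 group only, for the 8 best ranked genes with a locus in all lists and for genes whose peak numbers did not overlap. Genes named for their rank shifts at shared loci were chosen after their values were seen. The alternatives were an overlap of 50%, equal list lengths, a score of at least 100, matching by position, 1 list per group, ranking by score, ranking among the loci of all 4 lists, pairing by replicate number and leaving out each list.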

Additional observations from a re-analysis of the deposited data

How the results depend on the processing

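Of 84 recomputed values, 37 moved, by over 1.5 times for a count. The loci in all 4 lists (33) and the genes in all 4 lists (21) moved under none of the alternatives run. With lists of equal length, FGSC lists alone held 2 loci and 1 gene (Bub1), and Dif-FGC lists alone 3 loci and 1 gene (Anln); more peaks in both FGSC lists were found for 1 gene and in both Dif-FGC lists for 2. With a score of at least 100, FGSC lists alone held 3 loci and 1 gene and Dif-FGC lists alone 6 loci. With 1 list per group enough, FGSC alone held 32 loci and Dif-FGC alone 19 loci and 1 gene. Ranking by score gave a median rank of 75.7 in place of 68.5, and 8 loci higher in FGSC. Ranking among the loci of all 4 lists gave 6 higher in FGSC and 4 in Dif-FGC. Shares over all loci or genes under the alternatives are not given. These counts and those below describe how values moved and are not read as traits of these genes.

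Leaving out each list in turn gave 33 to 46 loci and 21 to 24 genes in all remaining lists. FGSC-only loci ranged from 5 to 28 (28 without FGSC 2, 9 without FGSC 1 or Dif-FGC 1) and Dif-FGC-only loci from 4 to 15 (15 without FGSC 1, 13 without Dif-FGC 2, 8 without Dif-FGC 1). FGSC-only genes ranged from 2 to 3 and Dif-FGC-only genes from 0 to 3 (3 without FGSC 1, 1 without Dif-FGC 2). Genes with more peaks in FGSC ranged from 2 to 15 (15 without FGSC 2, 7 without Dif-FGC 1) and in Dif-FGC from 1 to 9 (9 without FGSC 1, 4 without Dif-FGC 2). The median rank ranged from 66.3 to 70.8. Shared loci ranked higher in FGSC ranged from 7 to 15 (15 without FGSC 2, 10 without Dif-FGC 1, 8 without FGSC 1) and in Dif-FGC from 7 to 17 (17 without FGSC 1, 14 without Dif-FGC 2, 10 without FGSC 2). Each such count has fewer lists to satisfy. The rank comparison at shared loci and its alternatives were chosen after seeing the data.

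With a replicate block, pairing lists by number, 5 genes had more peaks in FGSC and 1 in Dif-FGC, and 8 shared loci ranked higher in FGSC and 9 in Dif-FGC. Same-numbered lists deviated together weakly (r = 0.128 over 11417 genes) and share only a number. Depth limits every absence, since a missing peak and a peak below the caller's threshold cannot be told apart.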

Other observations

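By position, the limits of Aurka also held peaks that the authors named for the overlapping gene Cstf1, which brought Aurka to 3, 1, 1 and 1 peaks in FGSC 1, FGSC 2, Dif-FGC 1 and Dif-FGC 2. The limits of Cdc25c held 1 peak, named for Gm3550, in FGSC 1. For the other 34 genes, matching by name and by position gave the same peaks. Peaks at or above the score ceiling of 3100 were listed for 1, 6, 5 and 6 of the genes in the same order of lists, so the score separates the strongest peaks poorly.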
